A study of Osmanthus fragrans with 6 samples.

Results

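In petals of Osmanthus fragrans var. semperflorens, 56 of 96596 assembled transcripts dipped at the late full stage of flowering round 1. A transcript was counted as dipping when its level at full bloom and its level at abscission were each at least 3 times its level at late full bloom, and each at least 3 CPM. CPM is the count of a transcript divided by the total of its library, scaled to the same total in every library. The rule used the levels at full bloom, late full bloom and abscission of round 1, so the dip itself is described here with no test. Of the 14036 transcripts with at least 3 CPM at full bloom and at abscission, the 56 were 0.399%.

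The plants were sweet osmanthus trees of the variety semperflorens growing outdoors, and petals were taken in September, on a different date for each stage. The libraries are called by stage and round. Those of round 1 are initial 1, full 1 (full bloom), late full 1 (late full bloom) and abscission 1, and those of round 2 are initial 2 and full 2. No treatment was applied to any of them. Each library was made from 5 pooled replicates, so each stage is 1 library, no spread within a stage was measured, and no p-value is given.

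Sweet osmanthus petals open, colour with carotenoids and release scent, and are then shed. Shedding follows the loosening of cell walls in an abscission zone, and petal messenger RNA changes widely between opening and shedding. A level that falls and then returns is a shape that neither a steady rise nor a steady fall towards shedding gives. The deposited IDs come without gene names. The 56 are therefore named by ID, their functions are not described, and the petal label was not checked against markers. CPM is not corrected for transcript length, so levels are compared between libraries and not between transcripts.

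Depth was 17826687 to 39119106 counts in 5 libraries and 107466 in initial 1, where 1 count stood for 9.31 CPM. The 5 deep libraries carry the results, and initial 1 is given apart. In these pooled petals, fewer cells of a type and less RNA per cell cannot be told apart. Intervals below are exact 95% Clopper-Pearson intervals on a pair of counts and cover counting error only.

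The 56 transcripts held few of the counts of any library, and their summed level was lowest in late full 1. Together they stood at 1422 CPM in full 1 (95% Poisson interval 1405 to 1438), 232 CPM in late full 1 (226 to 238) and 1172 CPM in abscission 1 (1156 to 1188). In round 2 the sum was 1330 CPM in full 2 (1314 to 1347) and 1544 CPM in initial 2 (1531 to 1556). By library totals the other 4 deep libraries lay between 1172 and 1544 CPM. That late full 1 lay below full 1 and abscission 1 is set by the rule. The order of the other 4 depends on the scaling. With TMM scaling, described below, the sums are divided by 1.06 in full 1, 0.711 in abscission 1, 1.11 in initial 2 and 0.869 in full 2. Abscission 1 is then the highest of the 4 and not the lowest. The median transcript of the 56 stood at 8.51 CPM in full 1, 1.47 CPM in late full 1 and 9.79 CPM in abscission 1. The medians over all 14036 transcripts were 25.2 CPM in full 1, 21.8 CPM in late full 1 and 18.3 CPM in abscission 1.

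Most dips were shallow and a few were nearly complete. Taking the smaller of the ratios of full 1 and abscission 1 to late full 1, with counts under 3 raised to 3, 29 transcripts dipped 3-fold to 4-fold, 11 dipped 4-fold to 5-fold, 12 dipped 5-fold to 10-fold and 4 dipped at least 10-fold. The median transcript was 4.74-fold lower in late full 1 than in full 1, and 5.04-fold higher in abscission 1 than in late full 1. Over all 14036 transcripts those medians were 1.17-fold lower and 0.860 times. Alone, a fall of at least 3-fold from full 1 was seen in 2.86% of the 14036 and a gain of at least 3-fold at abscission in 3.00%. These shares come from the contrasts that chose the 56 and are given only for scale.

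**Figure D1:**
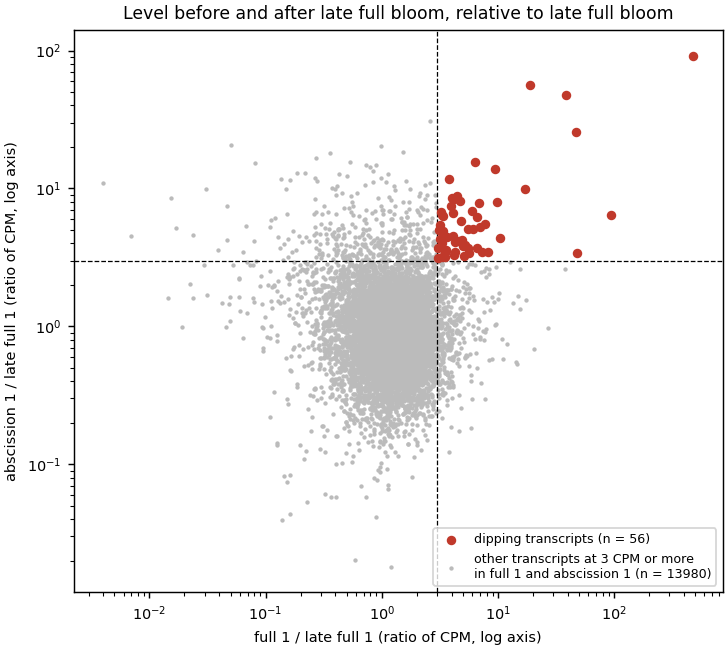
Each point is a transcript, with full 1 over late full 1 on the x axis and abscission 1 over late full 1 on the y axis (ratios of CPM, counts under 3 raised to 3, log axes). Red points are the 56 dipping transcripts and grey points the other transcripts with at least 3 CPM in full 1 and abscission 1. Dashed lines mark the 3-fold limits of the rule, and most red points lie close to them while 4 lie beyond 10-fold on both axes.

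The deepest dips were near-complete losses. Transcript c222846_g1_i1 had 1098 counts in full 1, 1 count in late full 1 and 189 counts in abscission 1, which is 55.5, 0.0386 and 10.6 CPM at those stages. It was 275-fold higher in abscission 1 than in late full 1 (95% interval 48.7 to 10910), and the width of that interval comes from the 1 count at the low point. With 189 counts it fell under the 200 counts asked of named transcripts at abscission and was added after its values were seen. In round 2 it stood at 20.6 CPM in full 2 and 59.1 CPM in initial 2, so the near absence was seen in late full 1 alone among the deep libraries.

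Transcript c162000_g2_i1 stood at 71.3 CPM in full 1, 1.5 CPM in late full 1 and 38.9 CPM in abscission 1. It was 47.4-fold lower in late full 1 than in full 1 (95% interval 34.5 to 66.9) and 25.8-fold higher in abscission 1 than in late full 1 (18.7 to 36.6). Its level in round 2 was 41.8 CPM in full 2 and 108 CPM in initial 2. Transcript c146715_g1_i1 had 22 CPM in full 1, 1.16 CPM in late full 1 and 65.1 CPM in abscission 1, which was 56.3-fold above late full 1 (39.2 to 83.8). It returned to a level above that of full 1, and it held 38.4 CPM in full 2 and 39.8 CPM in initial 2.

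Transcript c104218_g1_i1 had 83.4 CPM in full 1, 4.90 CPM in late full 1 and 48.2 CPM in abscission 1. It was 17.0-fold lower in late full 1 than in full 1 (95% interval 14.2 to 20.5). A further 3 named transcripts with deep counts had moderate dips. Transcript c144580_g2_i1 had 13.3 CPM in full 1, 3.01 CPM in late full 1 and 26.3 CPM in abscission 1, and c161206_g1_i4 had 23.6, 4.78 and 20.1 CPM at the same stages. For c145952_g1_i3 the levels were 24.0 CPM in full 1, 5.79 CPM in late full 1 and 48.2 CPM in abscission 1.

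Among the transcripts with the highest CPM, c153610_g2_i1 kept a clear level at its low point. It stood at 176 CPM in full 1, 33.7 CPM in late full 1 and 130 CPM in abscission 1, on 873 counts in late full 1. It was 5.22-fold lower in late full 1 than in full 1 (95% interval 4.84 to 5.63) and 3.87-fold higher in abscission 1 than in late full 1 (3.58 to 4.19). For c155737_g2_i1 the levels were 135 CPM in full 1, 16.5 CPM in late full 1 and 56.9 CPM in abscission 1. Transcript c119262_g2_i1 was close to it, at 121, 16.6 and 56.9 CPM at those stages. By library totals the abscission 1 level of each was below that of full 1. For c153610_g2_i1 the direction turned with the scaling, since abscission 1 was 0.742 times full 1 by library totals, 1.10 times with TMM and 1.18 times with DESeq2 size factors.

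The low levels rested on counts above 0, and many transcripts lay near the 3-fold limit. No dipping transcript had 0 counts in late full 1, and 2 had fewer than 3, c222846_g1_i1 and c161926_g2_i1, with 1 count each. In all 56 the intervals of both ratios lay above 2, and in 26 both lay above 3. Just inside the limit, with at least 200 counts in full 1 and abscission 1, were c223175_g1_i1, c159287_g1_i2 and c152680_g1_i2, with smaller ratios of 3.07, 3.15 and 3.17. Just outside were c155911_g1_i2, c137378_g1_i1 and c131377_g1_i1, at 2.97, 2.95 and 2.95. At a limit of 2 instead of 3 the same rule gave 233 transcripts and at a limit of 5 it gave 16.

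The scaling of the libraries moved transcripts across the limit. TMM scaling, which leaves out transcripts with extreme ratios or levels, lowered every ratio of full 1 to late full 1 by 1.16 times. DESeq2 size factors lowered it by 1.24 times. The ratio of abscission 1 to late full 1 was divided by 0.780 under both, and so rose. Both scalings were computed with the shallow initial 1 included, so the DESeq2 factors rest on transcripts with a count there. With TMM the rule gave 80 transcripts, 44 of them among the 56, and with DESeq2 size factors it gave 72, 39 of them among the 56. All 39 met the rule under the 3 scalings. With TMM, c147174_g1_i1 at 2.78-fold, c152680_g1_i2 at 2.88-fold, c159287_g1_i2 at 2.72-fold, c158796_g1_i2 at 2.62-fold and c223175_g1_i1 at 2.65-fold no longer reached 3-fold between full 1 and late full 1. The mirrored rule, with late full 1 at 3 CPM or more and at least 3 times both neighbours, gave 177 transcripts, or 1.09% of the 16260 with at least 3 CPM in late full 1. That base is not the one of the dips, which were 0.399% of the 14036. With TMM 194 transcripts peaked (1.16% of 16789) and 80 dipped (0.541% of 14796).

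By library totals, most of the 56 returned at abscission to near their full 1 level. Abscission 1 lay within 1.5-fold of full 1 in 31 transcripts and within 2-fold in 44, with a median ratio of abscission 1 to full 1 of 0.986. Over all 14036 transcripts that median was 0.726, and since the rule sets a floor at both stages the comparison is a description. The quartiles of that ratio were 0.744 and 1.496 for the 56, and 0.485 and 1.098 for the 14036. The shares of the 14036 within 1.5-fold and 2-fold were not computed. The counts of 31 and 44 therefore do not show that such a return set the 56 apart. In 20 transcripts the interval of the ratio lay above 1, in 17 it lay below 1 and in 19 it held 1. With TMM these counts were 35, 9 and 12, and under neither scaling were they made over the 14036. At least 3-fold higher in abscission 1 than in full 1 was 1 transcript, against 4.91% of the 14036, and at least 3-fold lower were 3, against 11.5%. With TMM the median ratio was 1.46, abscission 1 was within 1.5-fold of full 1 in 25 and within 2-fold in 36, with 5 at least 3-fold higher and 3 lower. Over the 14036 with TMM, the median was 1.08, with 8.51% at least 3-fold higher and 4.82% at least 3-fold lower.

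The returns that overshot most were those of c146715_g1_i1, c147174_g1_i1 and c145952_g1_i3, among transcripts with at least 200 counts at both stages. Their abscission 1 levels were 2.96 times (95% interval 2.65 to 3.32), 2.10 times (1.93 to 2.27) and 2.0 times (1.79 to 2.25) those of full 1. Levels of c147174_g1_i1 were 47.2 CPM in full 1, 14.7 CPM in late full 1 and 98.8 CPM in abscission 1. On fewer counts, and named after its values were seen, c47100_g1_i1 stood at 3.08 CPM in full 1, 0.810 CPM in late full 1 and 9.48 CPM in abscission 1, the transcript that passed 3-fold upwards.

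The weakest returns with deep counts were those of c155737_g2_i1, c119262_g2_i1 and c162000_g2_i1, at 0.423, 0.469 and 0.545 times full 1. In 3 transcripts abscission 1 stayed at least 3-fold below full 1. Transcript c115111_g1_i1 stood at 69.1 CPM in full 1, 0.733 CPM in late full 1 and 4.71 CPM in abscission 1, on 84 counts there. For c162891_g1_i1 the levels were 57.7, 1.20 and 4.04 CPM, and c222846_g1_i1 is given above. Their abscission 1 levels were 0.0682, 0.0700 and 0.191 times those of full 1. All 3 fell far and regained a small part of the full 1 level. Transcript c162891_g1_i1 was named after its values were seen.

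**Figure D2:**
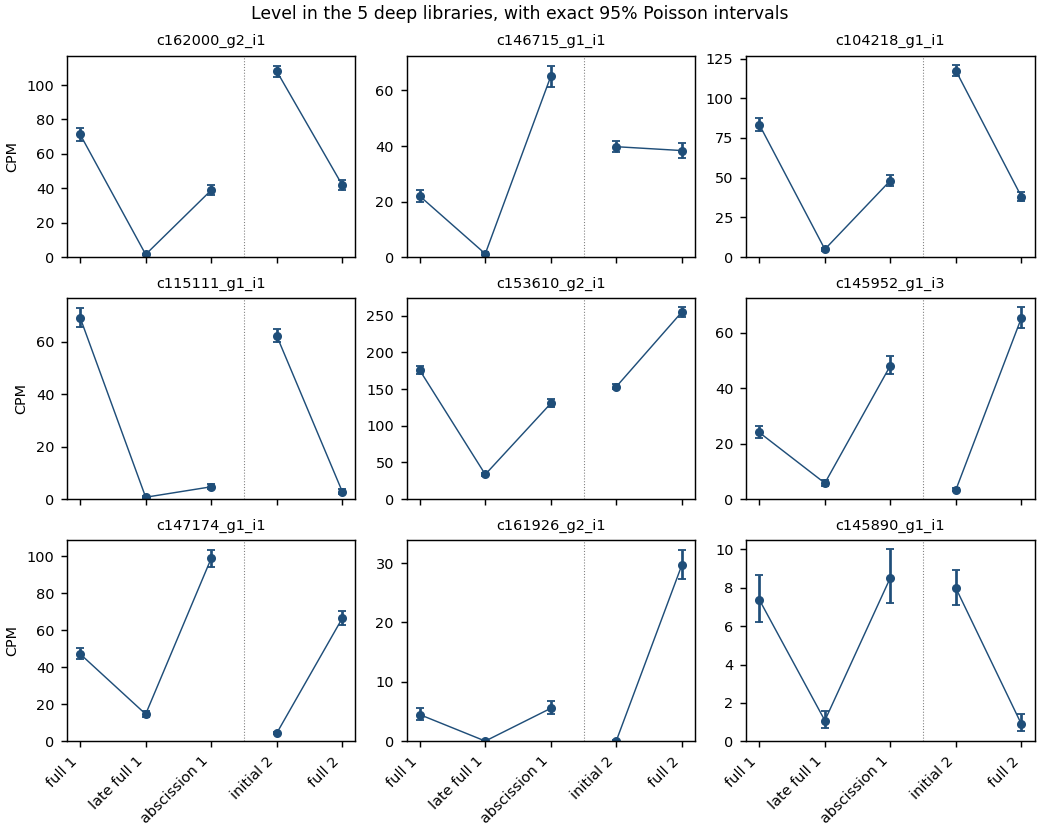
CPM of 9 named dipping transcripts in the 5 deep libraries, with exact 95% Poisson intervals as bars and a dotted line between round 1 and round 2. Lines join stages of the same round. All 9 have their round 1 low point among the deep libraries at late full 1, while initial 2 is high in c162000_g2_i1 and c104218_g1_i1 and low in c145952_g1_i3, c147174_g1_i1 and c161926_g2_i1.

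Round 2 was not used to choose the 56, and most of them were well above the late full 1 level there. Initial 2 was at least 3 times late full 1 in 40 of 56 transcripts (71.4%), against 6.89% of the 14036. Full 2 was at least 3 times late full 1 in 38 of 56 (67.9%), against 3.86%. Because late full 1 was chosen as a low point, any other library is likely to lie above it, and these shares are descriptions. With TMM and the same 56 transcripts the counts were 37 for initial 2, against 4.55% of the 14036, and 42 for full 2, against 4.39%. Of the 5 deep libraries, late full 1 was the lowest for 48 of the 56, initial 2 for 6 (10.7%) and full 2 for 2 (3.57%). Over the 14036 these shares were 16.0% for each of late full 1 and initial 2 and 15.5% for full 2, and the count for late full 1 is largely set by the rule. The highest library was initial 2 for 24 of the 56 (42.9%), against 34.3% of the 14036, and full 2 for 12 (21.4%), against 18.5%. It was abscission 1 for 13 (23.2%), against 12.2%, and full 1 for 7 (12.5%), against 23.7%. With TMM initial 2 was the highest for 15, against 19.2% of the 14036, and abscission 1 for 25 (44.6%), against 29.1%. Full 2 was so for 12, against 22.8%, and full 1 for 4, against 15.7%.

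Set by these limits, the 56 fell into 4 groups of unequal size. Both round 2 libraries were at least 3 times late full 1 in 28 transcripts (50%, against 1.13% of the 14036). Initial 2 alone was so in 12 (21.4%, against 5.76%) and full 2 alone in 10 (17.9%, against 2.74%). In the remaining 6 neither was, against 90.4% of the 14036.

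**Figure D3:**
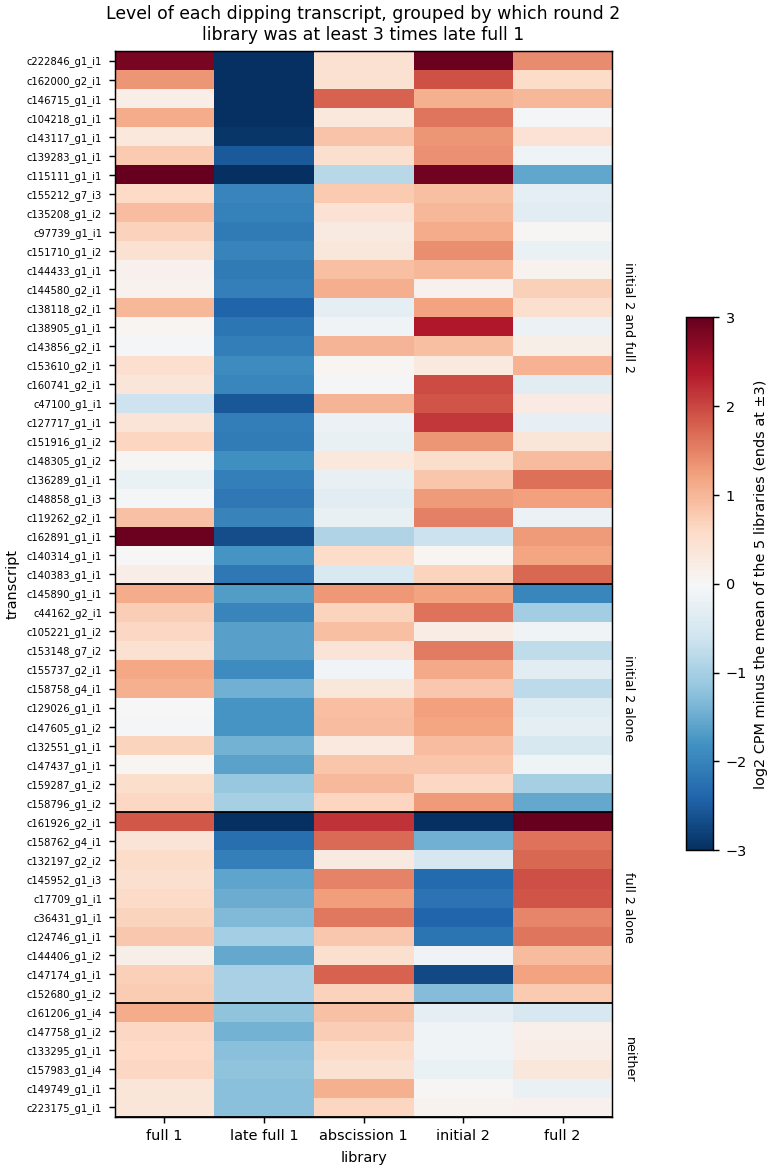
Rows are the 56 dipping transcripts and columns the 5 deep libraries. Colour is log2 CPM minus the transcript's mean over the 5 libraries, and black lines part the 4 groups by which round 2 library was at least 3 times late full 1. The late full 1 column is blue throughout, and in the group of full 2 alone the initial 2 column is blue as well in most rows.

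By the limits that set them, the 28 transcripts high in both round 2 libraries had late full 1 as their lowest deep library. Their median level was 10.4 CPM in full 1, 1.12 CPM in late full 1, 9.79 CPM in abscission 1, 15.7 CPM in initial 2 and 9.23 CPM in full 2. Full 2 exceeded initial 2 in 7 of the 28, and in 9 with TMM. The share of the 14036 with full 2 above initial 2 was not computed. Their median ratio was 0.864 by library totals and 1.10 with TMM. Whether 7 or 9 of 28 is few is therefore not read from these counts. Transcript c153610_g2_i1 was among those 7, at 255 CPM in full 2 and 153 CPM in initial 2. For c119262_g2_i1 the levels were 59.3 CPM in full 2 and 191 CPM in initial 2, and for c104218_g1_i1 they were 38.0 CPM in full 2 and 117 CPM in initial 2. Transcript c144580_g2_i1 was another of the 7, with 20.4 CPM in full 2 and 13.7 CPM in initial 2.

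Further transcripts of that group were named after their values were seen. Transcript c140383_g1_i1 had 109 CPM in full 2 and 52.1 CPM in initial 2, against 37.5 CPM in full 1, 7.33 CPM in late full 1 and 23.8 CPM in abscission 1. For c148858_g1_i3 the levels were 32.4 CPM in full 2 and 33.2 CPM in initial 2, above its 13.4 CPM in full 1. Transcript c138905_g1_i1 stood out by its initial 2 level, 60.5 CPM against 10.2 CPM in full 2, 11.9 in full 1 and 10.7 in abscission 1. It was high in initial 2 and about equal in the other libraries but late full 1, where it had 2.55 CPM.

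Over all 28, the late full 1 level ran from 0.0386 to 33.7 CPM, the initial 2 level from 3.83 to 191 CPM and the full 2 level from 2.03 to 255 CPM. The deepest dips of the 28 among those under 10 CPM in full 1, named after their values were seen, were those of c143117_g1_i1 and c139283_g1_i1. For c143117_g1_i1 the levels were 6.92 CPM in full 1, 0.733 CPM in late full 1 and 10.1 CPM in abscission 1, with 7.48 CPM in full 2 and 13.8 CPM in initial 2. Transcript c139283_g1_i1 had 7.58, 0.772 and 6.17 CPM at the same 3 stages of round 1, with 4.05 CPM in full 2 and 11.4 CPM in initial 2. Late full 1 was the low library for both, on 19 and 20 counts.

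In the 12 transcripts that were high in initial 2 alone, full 2 ran from 0.685 to 2.97 times late full 1. Their medians were 7.02 CPM in full 1, 1.89 CPM in late full 1, 7.69 CPM in abscission 1, 10.4 CPM in initial 2 and 3.51 CPM in full 2. That full 2 lay below initial 2 in each of them follows from the limits of the group. Transcript c145890_g1_i1 had 0.884 CPM in full 2 and 7.98 CPM in initial 2, with 7.37 in full 1, 1.08 CPM in late full 1 and 8.53 CPM in abscission 1. For c158796_g1_i2 the levels were 1.51 CPM in full 2 and 10.5 CPM in initial 2, and its late full 1 level was 2.20 CPM. These were the 2 transcripts whose full 2 level was at or below late full 1. In both, the interval of full 2 over late full 1 held 1 (0.420 to 1.55 for c145890_g1_i1 and 0.423 to 1.09 for c158796_g1_i2), so a difference between them was not detectable at this depth.

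Also in that group, c44162_g2_i1 had 1.25 CPM in full 2 and 7.98 CPM in initial 2, against 0.656 CPM in late full 1. Transcript c155737_g2_i1 fell in this group by a narrow margin that TMM reverses, since its full 2 level of 49.1 CPM was 2.97 times its late full 1 level (95% interval 2.65 to 3.34) by library totals and 3.12 times (2.78 to 3.50) with TMM. Its initial 2 level was 132 CPM, nearly that of full 1. For c159287_g1_i2 the levels were 4.63 CPM in full 2 and 14.1 CPM in initial 2, with 4.21 CPM in late full 1. Over the 12, late full 1 ran from 0.656 to 16.5 CPM, full 2 from 0.884 to 49.1 CPM and initial 2 from 3.89 to 132 CPM.

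In the 10 transcripts that were high in full 2 alone, initial 2 ran from 0.300 to 2.94 times late full 1. Their medians were 11.2 CPM in full 1, 3.03 CPM in late full 1, 15.5 CPM in abscission 1, 3.25 CPM in initial 2 and 26.4 CPM in full 2. That full 2 lay above initial 2 in each of them follows from the limits of the group. Abscission 1 was above full 1 in 8 of the 10, and in all 10 with TMM. The share of the 14036 with abscission 1 above full 1 was not computed. Their median ratio was 0.726 by library totals and 1.08 with TMM. Over the 14036 this ratio also correlated with full 2 over initial 2 (Pearson's r of 0.45), on which the group was picked. The counts are therefore not read as a trait of the group. In 6 of them initial 2 lay below late full 1. These were c145952_g1_i3, c147174_g1_i1, c152680_g1_i2, c17709_g1_i1, c36431_g1_i1 and c124746_g1_i1, the last pair named after their values were seen. In 5 of the 6 the interval of initial 2 over late full 1 lay below 1, and in c17709_g1_i1 it held 1 (0.341 to 1.04) by library totals and lay below 1 with TMM (0.280 to 0.853).

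Transcript c147174_g1_i1 had 66.5 CPM in full 2 and 4.40 CPM in initial 2, which was 0.300 times its late full 1 level (95% interval 0.249 to 0.360). For c145952_g1_i3 the levels were 65.4 CPM in full 2 and 3.43 CPM in initial 2, against 5.79 CPM in late full 1. Transcript c152680_g1_i2 had 69.1 CPM in full 2 and 16.3 CPM in initial 2, with 68.1 in full 1, 20.4 CPM in late full 1 and 64.8 CPM in abscission 1. By library totals abscission 1 was 0.952 times full 1 (95% interval 0.880 to 1.03), and with TMM it was 1.41 times (1.30 to 1.53). Initial 2 was 0.795 times late full 1 (95% interval 0.707 to 0.894). For c17709_g1_i1 the levels were 11.9 CPM in full 2 and 0.690 CPM in initial 2, against 4.80 in full 1, 1.16 CPM in late full 1 and 7.63 CPM in abscission 1.

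In c36431_g1_i1 and c124746_g1_i1, too, initial 2 was the lowest of the 5 deep libraries. For c36431_g1_i1 there were 13.2 CPM in full 2 and 0.920 CPM in initial 2, with 7.68 CPM in full 1, 1.93 CPM in late full 1 and 14.4 CPM in abscission 1. For c124746_g1_i1 there were 42.2 CPM in full 2 and 3.07 CPM in initial 2, and full 1 and abscission 1 both stood at 24.3 CPM, with 6.87 CPM in late full 1. Initial 2 lay above late full 1, but by less than 3-fold, in c158762_g4_i1 (9.72 CPM in full 2 and 1.15 CPM in initial 2), c132197_g2_i2 (19.8 CPM in full 2 and 4.19 CPM in initial 2) and c144406_g1_i2 (23.1 CPM in full 2 and 11.1 CPM in initial 2), all named after their values were seen.

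Transcript c161926_g2_i1 was the extreme of the group. It had 571 counts in full 2 (29.7 CPM), 4 counts in initial 2 (0.102 CPM), 89 counts in full 1 (4.50 CPM), 1 count in late full 1 (0.0386 CPM) and 99 counts in abscission 1 (5.55 CPM). Full 2 exceeded initial 2 by 290-fold (95% interval 113 to 1069). It was present in full 1, abscission 1 and full 2 and almost absent from late full 1 and initial 2.

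In the 6 transcripts of the last group the median dip was 3.36-fold, close to the 3.39-fold of the group high in initial 2 alone. Their medians were 4.82 CPM in full 1, 1.47 CPM in late full 1, 6.62 CPM in abscission 1, 3.46 CPM in initial 2 and 3.53 CPM in full 2. The highest of them, c223175_g1_i1, had 55.1 CPM in full 1, 17.9 CPM in late full 1 and 66.5 CPM in abscission 1, with 46.8 CPM in full 2 and 45.9 CPM in initial 2. For c161206_g1_i4 the levels were 7.85 CPM in full 2 and 8.90 CPM in initial 2, against 4.78 CPM in late full 1. Its round 2 levels were below both neighbours of the dip.

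Full 2 against initial 2 is a contrast that shares no library with the rule. At least 3-fold higher in full 2 were 10 of 56 dipping transcripts (17.9%), against 6.62% of the 14034 transcripts with at least 50 counts in that pair. At least 3-fold lower in full 2 were 14 (25%), against 6.54%. The middle of the 56 lay lower, with a median log2 ratio of full 2 to initial 2 of -0.81, against -0.21 over the 14036. The quartiles were also farther apart, at -1.58 and 0.75 for the 56 and at -0.77 and 0.37 for the 14036. With no replicate library and a list chosen on related measures, these are descriptions of the 6 libraries.

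TMM scaling shifted this contrast as a whole, so that the median log2 ratio was -0.45 for the 56 and 0.14 for the 14036. The distance between the medians stayed at -0.60, since a scaling moves each transcript alike. With TMM and the same 56 transcripts, 10 were at least 3-fold higher in full 2 and 8 lower, against 9.43% and 3.46% of the 14036. The share of lower calls thus depends on the scaling in both sets. The 56 also had lower CPM than the 14036, and transcripts of low CPM were more often at least 3-fold lower in full 2. Among transcripts whose smaller level of full 1 and abscission 1 was 3 to 10 CPM, a split made after the data were seen, 9 of 33 dipping transcripts were at least 3-fold lower in full 2 and 6 were higher. Over all 5171 transcripts of that range, 11.9% were lower and 6.31% higher. At 10 CPM or more, 5 of 23 were lower and 4 higher, against 3.42% and 6.80% of 8865.

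The 4 largest gains in full 2, among transcripts reaching 200 counts in full 2 or initial 2, were in c161926_g2_i1, c145952_g1_i3, c17709_g1_i1 and c147174_g1_i1. For c145952_g1_i3 full 2 was 19.1-fold above initial 2 (95% interval 16.0 to 23.0), for c17709_g1_i1 17.2-fold (11.5 to 26.7) and for c147174_g1_i1 15.1-fold (12.9 to 17.8). The 4 largest losses were in c115111_g1_i1, c145890_g1_i1, c158796_g1_i2 and c44162_g2_i1. Full 2 stood at 0.0460 times initial 2 for c115111_g1_i1 (0.0346 to 0.0601), 0.111 times for c145890_g1_i1 (0.0637 to 0.180), 0.143 times for c158796_g1_i2 (0.0949 to 0.209) and 0.156 times for c44162_g2_i1 (0.0987 to 0.237).

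**Figure D4:**
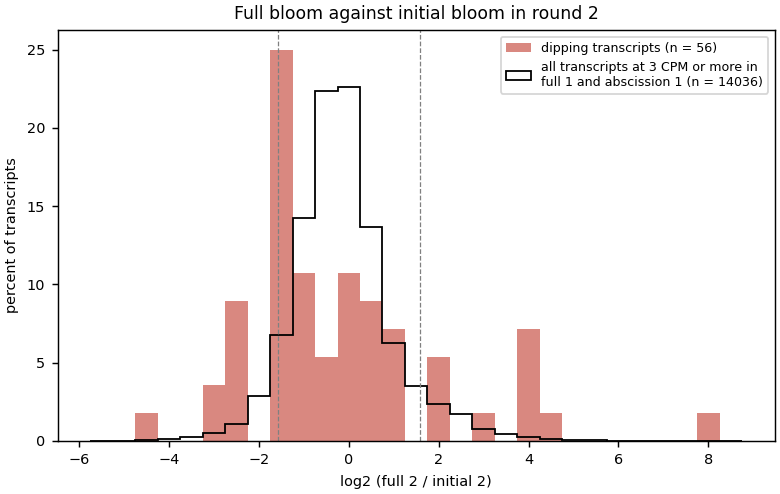
Distribution of log2 of full 2 over initial 2, as the percent of transcripts in each bin of 0.5. The 56 dipping transcripts (red) spread more widely than the 14036 transcripts with at least 3 CPM in full 1 and abscission 1 (black line), and dashed lines mark 3-fold.

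Full bloom was measured in both rounds, and full 1 is a library of the rule, so the pair is a description. The median ratio of full 2 to full 1 was 0.806 for the 56 and 0.888 for the 14036. At least 3-fold lower in full 2 were 7 transcripts, against 3.78% of the 14036, and at least 3-fold higher were 2, against 3.67%. With TMM these were 3 lower, against 2.12% of the 14036, and 5 higher, against 5.18%. Transcript c115111_g1_i1 had 2.86 CPM in full 2 and 69.1 CPM in full 1, and c145890_g1_i1 had 0.884 CPM in full 2 and 7.37 CPM in full 1. The 2 higher ones in full 2 than in full 1 were c161926_g2_i1, at 6.60 times full 1 (95% interval 5.27 to 8.35), and c136289_g1_i1, named after its values were seen, at 3.62 times (2.91 to 4.53). Initial 2 was at least 3-fold above full 1 in 4 of the 56, against 1.70% of the 14036, and at least 3-fold below it in 9, against 3.03%.

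Initial 1 was shallow, and 38 of the 56 transcripts had a count there, 24 of them with at least 3. Shares of the 14036 with such counts were not computed. The median transcript stood lower there in the 56, at 18.6 CPM against 27.9 CPM over the 14036. The sum over the 56 was 379 counts, or 3527 CPM (95% Poisson interval 3181 to 3900), by library totals above the sum in each of the other libraries. Transcript c115111_g1_i1 held 120 of those counts, at 1117 CPM. Without it the sum was 2410 CPM in initial 1 (2125 to 2722), against 1353 CPM in full 1 and 231 CPM in late full 1. In abscission 1 it was 1167 CPM, in initial 2 1482 CPM and in full 2 1328 CPM. The TMM factor of initial 1 was 1.51, so with TMM its CPM values are divided by that number, and those of abscission 1 by 0.711. With TMM and without c115111_g1_i1, the sum in initial 1 was no longer above that in abscission 1. The rank of initial 1 thus depends on that transcript and on the scaling. The other high transcripts in initial 1 were c119262_g2_i1, with 57 counts (530 CPM), and c104218_g1_i1, with 40 counts (372 CPM). Full 1 stood at 0.229 times initial 1 for c119262_g2_i1 (95% interval 0.176 to 0.303) and at 0.224 times for c104218_g1_i1 (0.164 to 0.315). Late full 1 lay below initial 1 beyond counting error in 25 transcripts, against 15.0% of the 14036, and since late full 1 was chosen as a low point nothing is read from that count. With TMM it did so in 21, against 6.48%. For the other 31, by library totals, a difference was not detectable at this depth.

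The transcript IDs carry a component number, and transcripts with the same number were taken to come from 1 assembly component and so to be related in sequence. Reads of related transcripts can be divided between them in more than 1 way. No pair among the 56 shared a component. Of the 56, 35 were alone in theirs and 21 (37.5%) had other listed transcripts beside them, against 47.7% of the 14036. In 10 of the 21 the sum over the whole component also met the dip rule. Over all components, 49 sums met it, or 0.412% of the 11895 with at least 3 CPM in full 1 and abscission 1.

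In the other 11, the component sum did not meet the rule, although it was lowest at late full 1 in 18 of all 21. For c162000_g2_i1 the dip was not seen in the sum, which was 152 CPM in full 1, 76.2 CPM in late full 1 and 82.6 CPM in abscission 1. Its partners, named after their values were seen, were steadier: c162000_g1_i1 stood at 44.9, 35.6 and 31.8 CPM at those stages, and c162000_g3_i2 at 35.6, 39.1 and 11.9 CPM. The partner of c119262_g2_i1, c119262_g1_i1, had 38.5 CPM in full 1, 27.7 CPM in late full 1 and 5.89 CPM in abscission 1, and their sum dipped 1.42-fold. For c153610_g2_i1 the sum was 537 CPM in full 1, 168 CPM in late full 1 and 328 CPM in abscission 1, a dip of 1.94-fold, and its partner c153610_g1_i1 was itself lowest at late full 1. How the reads of these components were divided was not tested.

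Other partners, also named after their values were seen, were also lowest at late full 1 among the 3 deep libraries of round 1, with returns of unequal size. Transcript c161926_g1_i1 had 2.07 CPM in full 1, 0 counts in late full 1 and 4.26 CPM in abscission 1, with 23.0 CPM in full 2 and 0.0511 CPM in initial 2. It missed the set only by its full 1 level and, like c161926_g2_i1, it had almost no counts in late full 1 and initial 2. In the component of c158762_g4_i1, c158762_g2_i2 had 3.38 CPM in full 1, 1.16 CPM in late full 1 and 9.03 CPM in abscission 1, and c158762_g1_i1 had 4.80, 1.00 and 2.19 CPM. Transcript c124746_g2_i1 stood at 16.3, 4.36 and 7.97 CPM, beside 24.3, 6.87 and 24.3 CPM of c124746_g1_i1. Of 18 partners with at least 3 CPM in full 1, late full 1 or abscission 1, 7 (38.9%) were lowest at late full 1, against 20.3% of all other transcripts at that level.

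**Figure D5:**
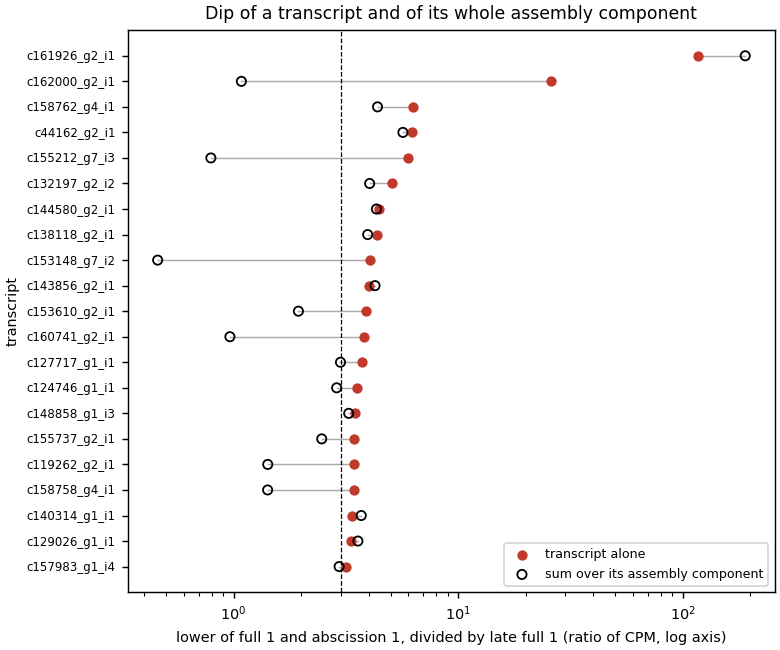
For the 21 dipping transcripts with other transcripts in their assembly component, the x axis gives the lower of full 1 and abscission 1 divided by late full 1 (ratio of CPM, log axis). Red points are the transcript alone and open points the sum over its component. The sum stays right of the dashed 3-fold line in 10 of 21, and it moves farthest left for c162000_g2_i1, c155212_g7_i3 and c153148_g7_i2.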

How the data were processed

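Petal messenger RNA was sequenced from 6 stages, 1 library each, with 5 replicates pooled a library, as the series' design text states. The authors deposited unscaled estimated counts per assembled transcript, with 36 to 855 decimal values among the whole numbers of a column. The submitters' processing notes name CASAVA 1.7. Which assembler, aligner or counter was used is not given in the sources used here. Columns without a sample numbered 0. Counts were rounded to whole numbers, and CPM was taken from the column totals. Members and lists were chosen with earlier results of these data known. Ratios raise counts under 3 to 3, except where a ratio on 1 count is given with its interval. Called means at least 3-fold, and in full 2 against initial 2 the pair also held at least 50 counts. No test was made, since each group is 1 library. Named transcripts follow a fixed rule: the 6 deepest dips and 6 highest levels, the 4 highest and 4 lowest ratios of full 2 to initial 2, the 3 highest and 3 lowest ratios of abscission 1 to full 1, the 3 highest counts in initial 1, and 3 on each side of the limit, with at least 200 counts where a ratio ranks them. The calculation was tested on simulated data. Other settings were TMM scaling (edgeR 4.0.16), DESeq2 1.42.0 size factors (R 4.3.3), other fold and CPM limits, a floor of 3 counts in late full 1, component sums and equal depth. The remaining steps used Python 3.11.15 and its packages SciPy 1.17.1, NumPy 2.4.6, pandas 2.3.3 and matplotlib 3.10.9.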

Additional observations from a re-analysis of the deposited data

Results flagged for a closer look

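Transcript c151916_g1_i2 went opposite ways between initial and full bloom in the 2 rounds. In round 1 its counts were 813 in full 1 and 0 in initial 1, at least 1.47-fold higher in full 1 with 3 counts as the floor of initial 1. The exact 95% interval of that ratio, which allows for more than 3 counts, starts at 1.19. In round 2 its full 2 level was 0.515 times its initial 2 level (95% interval 0.472 to 0.561), at 33.7 CPM in full 2 and 65.5 CPM in initial 2. The difference between the rounds was not tested, since each stage is 1 library, and the shallow depth of initial 1 limits it. The intervals of the other 55 transcripts did not lie on opposite sides of 1 in this way. How often they did so over the 14036 was not computed, so the transcript is not read as a trait of the set.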

How the results depend on the processing

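Each library stands for its stage, so nothing below measures the spread between pools. No paired analysis was possible because each group is 1 library. With the rule applied anew, raising late full 1 counts under 3 to 3 left all 56 transcripts in place. Thinned to the depth of abscission 1, the deep libraries gave 65, of which 55 were among the 56, and summing components gave 49. Limits of 10 CPM and 1 CPM gave 23 and 146 transcripts, of which 13 and 42 had both intervals above 3. Limits of 5-fold and 2-fold gave 16 and 233, with 15 such transcripts at 5-fold. Higher in full 2 than in initial 2 were 4 at 10 CPM, 24 at 1 CPM, 3 at 5-fold and 59 at 2-fold. Lower in full 2 than in initial 2 were 5 at 10 CPM, 47 at 1 CPM, 5 at 5-fold, 49 at 2-fold, and 22 with TMM and 22 with DESeq2 size factors. With those scalings, 4.24% of 14796 and 3.97% of 14803 transcripts meeting the CPM limit were lower. At 10 CPM, 6.80% of 8865 were higher and 3.42% lower. At 5-fold and 2-fold the base was that of the main rule, with 6.62% of 14034 higher and 6.54% lower. Initial 2 was at least 3 times late full 1 in 16 at 10 CPM, 109 at 1 CPM, 13 at 5-fold, 117 at 2-fold and 64 with TMM. Full 2 was so in 17 at 10 CPM, 105 at 1 CPM, 14 at 5-fold, 115 at 2-fold and 62 with TMM. At least 3-fold lower in full 2 than in full 1 were 2 at 10 CPM, 21 at 1 CPM, 3 at 5-fold and 19 at 2-fold. Higher in abscission 1 than in full 1 were 0 at 10 CPM, 5 at 1 CPM, 0 at 5-fold, 14 at 2-fold, 3 with TMM, 5 with DESeq2 size factors and 2 component sums. Lower in abscission 1 than in full 1 were 1 at 10 CPM, 9 at 1 CPM, 12 at 2-fold, and 8 with TMM and 8 with DESeq2 size factors. The 5-fold and 2-fold limits leave the 14036 unchanged. Of these, 6.89% had initial 2 and 3.86% full 2 at least 3 times late full 1. Full 2 was at least 3-fold below full 1 in 3.78%. Abscission 1 was at least 3-fold above full 1 in 4.91% and below it in 11.5%. For the other settings with the rule applied anew these shares were not computed, so those counts have no background. With the same 56 transcripts kept, a setting chosen after seeing the data, 8 were lower in full 2 than in initial 2 with TMM and 8 with DESeq2 size factors, 3 and 3 were lower in full 2 than in full 1, and 5 and 9 were higher in abscission 1 than in full 1. Over the 14036, the matching shares with TMM were 3.46%, 2.12% and 8.51%, in the same order. With DESeq2 size factors they were 3.15%, 1.83% and 9.72%. A stricter limit keeps fewer transcripts and a looser one more. Component sums count other units, and the scalings shift every transcript of a library alike. Of 132 ratios of the 22 named transcripts under TMM and DESeq2 size factors, 55 stayed within their counting interval and 77 left it. The 22 include the 3 transcripts just outside the limit. No ratio past 3-fold turned direction, but shifts of this size could not turn one, so nothing is read from that. Smaller ratios could turn, as full 2 over initial 2 of c146715_g1_i1 did, from 0.965 by library totals to 1.23 with TMM. Depth limits what initial 1 can show.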

Other observations

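Abscission 1 against full 1 and full 2 against initial 2 share no library. Across the 56 dipping transcripts, which are not independent replicates, the log2 ratios of the 2 contrasts correlated with Pearson's r of 0.29 and Spearman's rho of 0.33, and 34 of the 56 had the same direction in both. Across the 14036 transcripts with at least 3 CPM in full 1 and abscission 1, r was 0.45 and rho 0.43, with the same direction in 69.6%.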
